A study of Mus musculus with 46 samples.

Results

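Major histocompatibility complex (MHC) presentation was described through 10 genes of mouse microglia, the resident macrophages of the brain: H2-Aa, H2-Ab1, H2-Eb1, Cd74, Ciita, H2-DMa and H2-DMb1 of the class II pathway, and H2-K1, H2-D1 and B2m of the class I pathway. They were taken by symbol from the 20999 genes of the count table, and 10 of 10 were found. The filter on low counts kept 12230 genes, among them 10 of the 10. The study isolated proliferating microglia from several settings and compared their RNA and their H3K27ac, an acetylation of histone H3 found at active regulatory DNA. All animals were male C57BL/6 mice, and microglia were sorted with antibodies to CD11b, CD45 and CD44 after a Percoll gradient. RNA came from 5 groups of 2 libraries. Adult libraries came from untreated wild-type mice of 90 days and are labelled as Ki67-negative microglia. Neonatal libraries came from untreated mice of postnatal day 8 (PND8) with the Ki67-rfp reporter, split into Ki67-negative and Ki67-positive cells, Ki67 being a protein of cycling cells. Repopulation libraries came from Ki67-rfp mice that ate PLX5622 from 55 days of age for 17 days and recovered for 3 days, to an age of 75 days, and were split in the same way. PLX5622 inhibits the receptor CSF1R and depletes microglia, and the cells sorted here were refilling the brain. H3K27ac came from wild-type mice in 6 groups of 2 libraries, from fixed cells stained with an antibody to Ki67. These were untreated adults of 60 and 65 days, PND8 Ki67-negative and Ki67-positive cells, Ki67-negative and Ki67-positive cells of 90 days after 4 weeks of cuprizone, a diet that damages myelin, and Ki67-positive cells of repopulation at 90 days (PLX5622 from 70 days of age for 17 days, recovery for 3 days). The header of the first repopulation list carries another age than its label. Nothing states whether 2 libraries of a group came from separate animals, so p-values measure the spread between these libraries, which may be technical.

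MHC class II molecules display peptides from engulfed material to CD4+ T cells. The chains pair in the endoplasmic reticulum (H2-Aa with H2-Ab1 in the I-A molecule), the invariant chain Cd74 guides them to endosomes, and H2-DM, a dimer of H2-DMa and H2-DMb1, exchanges its remnant for peptides. Ciita is the co-activator that switches on the class II genes through a complex of X box and Y box proteins, and it is induced by interferon-gamma. MHC class I molecules, made of a heavy chain (H2-K1 or H2-D1) and B2m, display peptides from the cell's own proteins to CD8+ T cells, and Nlrc5 is the related co-activator of class I genes. Microglia of the healthy adult brain are known for little surface class II, whereas border macrophages, dendritic cells and B cells can carry much of it. C57BL/6 mice carry no working H2-Ea, the partner of H2-Eb1, and the H2-Ea-ps pseudogene of the table had 0 counts in the 10 libraries.

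Of the 10 genes, 7 lie on chromosome 17, in the H2 region between H2-K1 and H2-Eb1 and, 957227 bp further, at H2-D1. In mm10, the build of the files, H2-K1 spans chr17:33996012-34000333 on the minus strand. H2-DMa (chr17:34125518-34139101), H2-DMb1 (chr17:34153191-34160229), H2-Ab1 (chr17:34263227-34269418) and H2-Eb1 (chr17:34305867-34316674) lie on the plus strand, and H2-Aa (chr17:34282744-34287823) lies on the minus strand. H2-D1 spans chr17:35263094-35267497. Ciita lies at chr16:10480072-10527640 and B2m at chr2:122147687-122153082, both on the plus strand. An entry named H2-L, on the plus strand like H2-D1, has its start 29 bp from that of H2-D1. The 2 entries may describe the same locus and share or split its reads. Patl2 overlaps B2m.

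The DNA upstream of the starts shows which motif strings class I and class II genes share. RefSeq promoter entries (GRCm38.p6) were matched by symbol for 7 of the 10 genes, and H2-Ab1, Ciita and Cd74 were not matched. In the 250 bases upstream, both strands, 5 motifs were searched: the X box core (GNNACNGAT or CTAGCAAC), the Y box (ATTGG), the interferon-stimulated response element (GAAANNGAA), the GAS element (TTCNNNGAA) and the kappa B site (GGGNNTTCC). The 180 bases up to the start are shown for 6 genes, 5′ to 3′ along the gene. They were chosen because they hold the X box, kappa B and interferon element matches. Capitals mark matches, and a match is a string of letters, not a measured site.
H2-Eb1: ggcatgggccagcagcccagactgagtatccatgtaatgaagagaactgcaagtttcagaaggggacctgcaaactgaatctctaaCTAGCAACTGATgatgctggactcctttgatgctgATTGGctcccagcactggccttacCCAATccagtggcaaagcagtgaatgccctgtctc
H2-DMb1: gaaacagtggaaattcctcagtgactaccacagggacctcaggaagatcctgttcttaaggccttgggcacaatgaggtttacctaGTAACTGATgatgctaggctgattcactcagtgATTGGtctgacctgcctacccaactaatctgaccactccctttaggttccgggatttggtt
H2-D1: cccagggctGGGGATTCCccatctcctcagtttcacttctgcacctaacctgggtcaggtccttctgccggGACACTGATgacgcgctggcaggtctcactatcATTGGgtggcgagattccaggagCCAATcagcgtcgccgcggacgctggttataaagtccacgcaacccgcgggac
H2-Aa: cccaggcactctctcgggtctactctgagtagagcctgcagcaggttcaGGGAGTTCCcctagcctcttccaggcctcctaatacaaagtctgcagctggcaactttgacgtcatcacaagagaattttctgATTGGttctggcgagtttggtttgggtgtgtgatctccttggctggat
H2-K1: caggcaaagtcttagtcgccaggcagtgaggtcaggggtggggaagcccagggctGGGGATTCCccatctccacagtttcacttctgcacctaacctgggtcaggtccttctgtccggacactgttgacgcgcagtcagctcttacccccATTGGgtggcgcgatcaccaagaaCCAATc
B2m: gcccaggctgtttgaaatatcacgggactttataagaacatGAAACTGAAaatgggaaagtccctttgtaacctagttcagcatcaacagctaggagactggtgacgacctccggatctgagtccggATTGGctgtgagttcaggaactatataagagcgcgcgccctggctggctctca
These stretches span chr17:34305687-34305866 (H2-Eb1), chr17:34153011-34153190 (H2-DMb1), chr17:35262914-35263093 (H2-D1), chr17:34287824-34288003 (H2-Aa, minus strand), chr17:34000334-34000513 (H2-K1, minus strand) and chr2:122147507-122147686 (B2m). The X box core stood in 3 of 7 genes, H2-Eb1, H2-DMb1 and H2-D1, and in 7.59% of all 32851 promoters. In H2-Eb1 it lay at -94 to -83 relative to the start as 2 overlapping matches, in H2-DMb1 at -94 to -86 and in H2-D1 at -109 to -101. In each of the 3 a Y box followed on the same strand within 40 bases, an arrangement that 88 promoters (0.268%) hold and that was looked for after the sequences had been seen. The Y box alone stood in 7 of 7 genes and in 33.8% of promoters. H2-DMa and H2-K1 have 2 promoter entries each, and a gene counted if any of its entries matched, whereas shares are per entry. H2-DMa held its Y box in entry 2 and none in entry 1, and positions of H2-K1 are those of entry 2. The kappa B string stood in H2-Aa, H2-K1 and H2-D1, against 4.98% of promoters. H2-D1 and H2-K1 carry the same letters there, at -171 to -163 and at -125 to -117. Of the 7, B2m alone held the searched letters of the interferon-stimulated response element, at -139 to -131, against 7.13% of promoters. Other spellings of this element were not searched, so genes without these letters may still hold it. The GAS letters stood in 0 of 7, against 7.02%.

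RNA libraries held 6865903 to 10287876 counts, and the 10 genes took 0.0862% to 0.149% of them. Levels are given as CPM, counts relative to library size, and are scaled by TMM, a factor that aligns most genes between libraries. Mki67, the gene of the sort, measured 13.4 and 10.998 CPM in adult, 242 and 282 in PND8 Ki67-negative, 919.6 and 1107 in PND8 Ki67-positive, 336 and 463 in the repopulating Ki67-negative and 930.1 and 1087 in repopulating Ki67-positive libraries. Adult libraries were the lowest, and Ki67-negative libraries of PND8 and repopulation lay between them and the Ki67-positive ones. The 10 microglia markers (P2ry12, Tmem119 and others) were detected in 10 of 10 libraries, at a sum of 7382 to 9835 CPM. Markers of other myeloid cells stood apart in adult: 10 monocyte and neutrophil genes summed to 272 and 79.3 CPM there and to 3.49 to 9.37 in the other 8 libraries, where 1 to 7 of the 10 were at 0. Clec9a, a marker of cross-presenting dendritic cells, measured 1.504 and 1.59 CPM in adult (13 counts in each) and 0 to 0.367 elsewhere. Ccr2, a monocyte receptor, measured 12.95 and 14.4 CPM in adult and 1.83 to 8.85 elsewhere. The 10 dendritic markers as a whole were lowest in adult (85.7 and 72.5 CPM, against 129 to 281), through Itgax, which was 28.6 and 25.7 in adult and 78.5 to 210.3 elsewhere. The 10 border macrophage markers summed to 1406 and 1514 CPM in adult, 1914 to 2298 at PND8 and 776 to 975 in repopulation. In repopulation libraries 2 to 4 of the 10 were at 0, and 0 in the others. Of 9 that passed the filter, 7 fell and 0 rose in repopulating Ki67-positive cells against adult (edgeR, adjusted p under 0.05). Their median log2 fold change was -3.33, and 21.0% of all genes were lower. Against PND8 Ki67-positive cells 9 fell (median -3.67), where 14.2% of all genes were lower. The list of 9 B cell markers summed to 26.4 and 26.2 CPM in adult and to 18.9 to 56.2 elsewhere, and was carried by Cd79b. Of 10 T and NK cell markers, 7 or 8 were at 0 in every library. The 5 astrocyte markers summed to 236 and 245 CPM in adult, to 82.5 and 52.3 in replicate 1 and 428 and 371 in replicate 2 of the PND8 sorts, and to 407 to 564 in repopulation. In adult replicate 2, 3 of these 5 were at 0. This list lay above adult in repopulation, where it overlapped the Ki67-negative PND8 replicate 2, and it differed between PND8 replicates. H2-K1 and H2-D1 in repopulation lay above all PND8 libraries. The part of such cells in the differences between settings was not tested. In bulk RNA, fewer cells of a type and less RNA per cell cannot be told apart.

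Against adult, 6 of the 10 genes fell and 0 rose in PND8 Ki67-positive cells, with 24.3% of all tested genes called lower and 25.1% called higher (49.5% in all; edgeR quasi-likelihood test, Benjamini-Hochberg adjusted p under 0.05). The 6 were the 3 class II chains, Ciita and both H2-DM chains, and 6 again fell and 0 rose in PND8 Ki67-negative cells, against 21.4% lower and 25.4% higher (46.8% in all) of all genes. At an unadjusted p under 0.05, 1 gene was higher in the Ki67-positive and 0 in the Ki67-negative comparison, and DESeq2 called 0 higher in each. In repopulating Ki67-positive cells 4 fell (H2-Aa, H2-Eb1, Cd74 and Ciita) and 4 rose (H2-DMa and the 3 class I genes), against 21.0% lower and 23.9% higher (44.9% in all) of all genes. In repopulating Ki67-negative cells 3 fell and 4 rose, against 17.6% and 21.5% (39.2% in all). These 4 comparisons share the adult libraries. Repopulation against PND8 does not use them: among Ki67-positive cells 5 of 10 rose and Cd74 fell, against 16.7% higher and 14.2% lower (30.9% in all) of all genes, and among Ki67-negative cells 5 rose and 0 fell, against 18.0% and 18.6% (36.6% in all), with 0 lower also at an unadjusted p under 0.05 and by DESeq2. The 5 were H2-Ab1, H2-DMa, H2-DMb1, H2-K1 and H2-D1 in both. Among Ki67-positive cells, the median log2 fold change of the 10 genes was -1.05 at PND8 against adult (0.0018 over all tested genes), 0.17 in repopulation against adult (-0.0097 over all) and 0.69 in repopulation against PND8 (0.0025 over all).

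**Figure D1:**
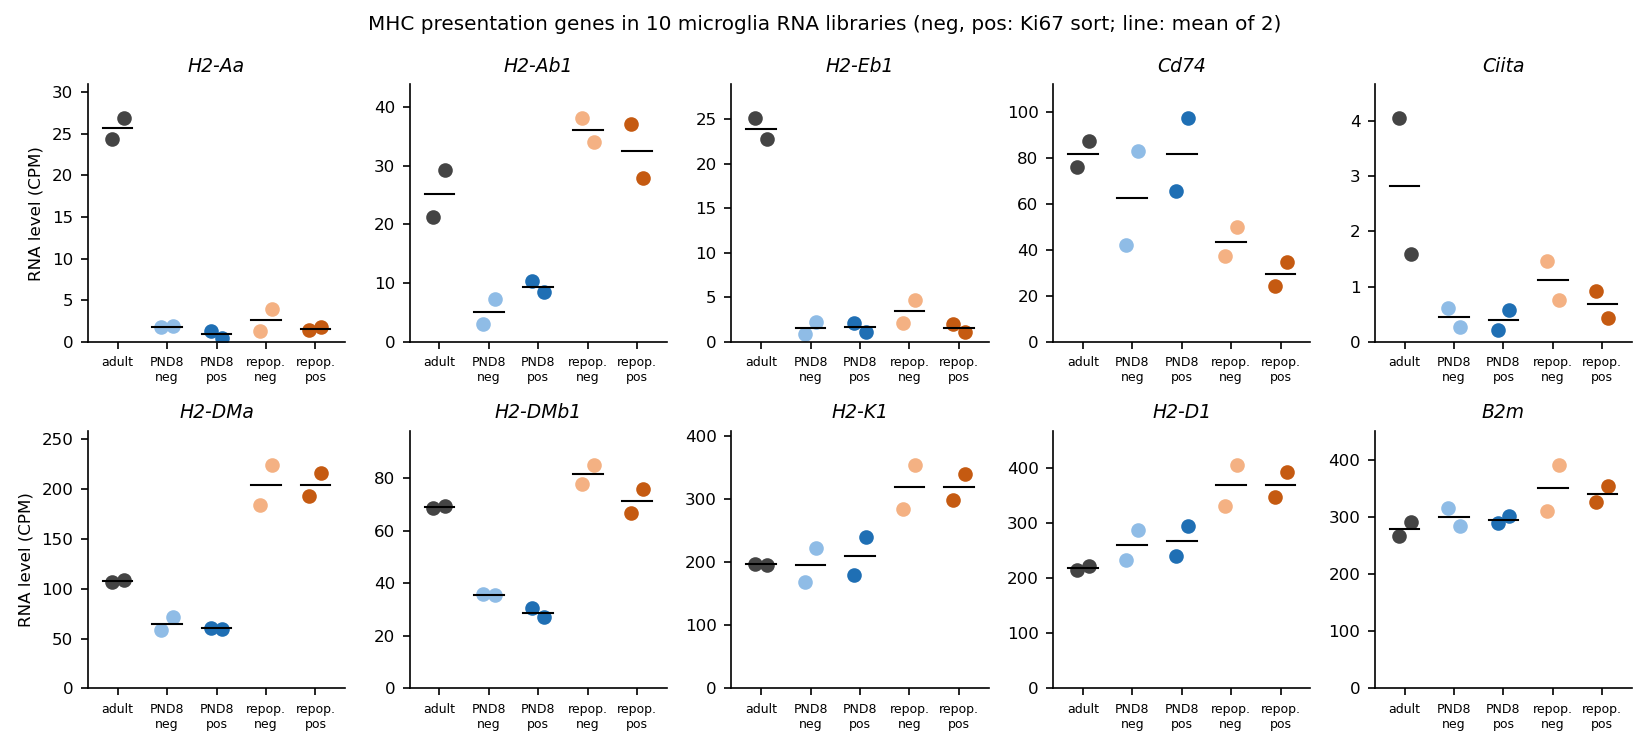
RNA level of each of the 10 genes in CPM, TMM-scaled (y axis, linear from 0, its own range per gene), in 5 groups of 2 libraries (x axis); points are libraries and lines the mean of 2. H2-Aa and H2-Eb1 are high in adult alone, H2-Ab1 and both H2-DM genes are lowest at PND8, and H2-K1 and H2-D1 are highest in repopulation.

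Among the class II chains, H2-Aa, the alpha chain of I-A, measured 24.4 and 26.9 CPM in adult (211 and 220 counts). It measured 1.73 and 1.93 in PND8 Ki67-negative, 1.32 and 0.462 in PND8 Ki67-positive, 1.25 and 3.96 in the repopulating Ki67-negative and 1.39 and 1.73 in repopulating Ki67-positive libraries, on 4 to 26 counts. Both adult libraries lay above all 8 others, and both PND8 Ki67-positive libraries lay below both PND8 Ki67-negative ones. The log2 fold change against adult was -4.81 (SE 0.47, adjusted p = 2.25e-06, edgeR) in PND8 Ki67-positive cells. In repopulating Ki67-positive cells it was -4.04 (SE 0.44, adjusted p = 7.77e-06, edgeR). In the Ki67-negative cells it was -3.79 at PND8 and -3.38 in repopulation. Between repopulation and PND8 no difference was called for H2-Aa, at 0.77 (SE 0.63, adjusted p = 0.388, edgeR) among Ki67-positive cells.

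H2-Eb1, the beta chain of I-E, was also high in adult alone. It measured 25.1 and 22.7 CPM in adult and 0.866 to 4.72 in the other 8 libraries, with 4.72 in repopulating Ki67-negative replicate 2 as the highest of these. Both adult libraries lay above all others. The log2 fold change against adult was -3.86 in PND8 Ki67-positive cells (SE 0.43, adjusted p = 8.58e-06, edgeR) and -3.90 in their repopulating counterparts (SE 0.44, adjusted p = 1.18e-05, edgeR). In the Ki67-negative cells the differences from adult were -3.89 at PND8 and -2.87 in repopulation.

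H2-Ab1, the beta chain of I-A and the partner of H2-Aa, had another pattern. It measured 21.2 and 29.3 CPM in adult, 2.97 and 7.34 in PND8 Ki67-negative, 10.4 and 8.44 in PND8 Ki67-positive, 38.1 and 34.0 in the repopulating Ki67-negative and 37.0 and 27.9 in repopulating Ki67-positive libraries. PND8 libraries were the lowest. The 2 repopulation sorts overlapped, repopulating Ki67-negative lay above adult libraries, and repopulating Ki67-positive overlapped them. It fell by 1.42 (SE 0.29, adjusted p = 0.00109, edgeR) from adult to PND8 Ki67-positive cells. Against PND8 it rose by 1.79 (SE 0.28, adjusted p = 3.45e-04, edgeR) in repopulating Ki67-positive and by 2.75 (SE 0.30, adjusted p = 1.24e-05, edgeR) in repopulating Ki67-negative cells. Against adult no difference was called in repopulation, at 0.37 (SE 0.26, adjusted p = 0.268, edgeR) and 0.52 (adjusted p = 0.131, edgeR).

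The balance of the 2 I-A chains differed between settings. On the scale of TPM, which divides by transcript length, the ratio of H2-Ab1 to H2-Aa was 0.820 and 1.03 in adult libraries. It was 1.62 and 3.60 in PND8 Ki67-negative, 7.41 and 17.3 in PND8 Ki67-positive, 28.9 and 8.11 in the repopulating Ki67-negative and 25.2 and 15.3 in repopulating Ki67-positive libraries. No adult library reached the ratio of any other library. Outside adult the ratios rest on 4 to 26 counts of H2-Aa, so their spread is wide, and no test was run on them.

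Cd74, the invariant chain (chr18:60803849-60812652, plus strand), overlapped between adult and PND8 and lay below adult in repopulation. It measured 76.0 and 87.2 CPM in adult, 42.2 and 82.7 in PND8 Ki67-negative, 65.6 and 97.2 in PND8 Ki67-positive, 37.3 and 49.7 in the repopulating Ki67-negative and 24.2 and 34.5 in repopulating Ki67-positive libraries. The 4 repopulation libraries lay below both adult ones, and repopulating Ki67-negative overlapped PND8 Ki67-negative libraries. Against adult the fitted difference was -0.0039 (SE 0.26, adjusted p = 0.991, edgeR) in PND8 Ki67-positive cells. Cd74 fell by 1.48 (SE 0.28, adjusted p = 8.57e-04, edgeR) in repopulating Ki67-positive and by 0.92 (adjusted p = 0.0170, edgeR) in repopulating Ki67-negative cells. The second call was lost with DESeq2 (adjusted p = 0.0691), without adult replicate 2 (edgeR, adjusted p = 0.102) and without repopulating Ki67-negative replicate 1 (edgeR, adjusted p = 0.138). Against PND8 Ki67-positive cells, Cd74 fell by 1.48 (SE 0.28, adjusted p = 0.00145, edgeR) in repopulating Ki67-positive cells. In TPM, Cd74 stood at 10.7 to 13.02 times H2-Ab1 in PND8 Ki67-negative and 6.05 to 10.8 times in PND8 Ki67-positive libraries, at 2.78 and 3.32 times in adult and at 0.620 to 1.38 times in repopulation.

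Ciita, the class II co-activator, was scarce throughout. It had 35 and 13 counts in adult, 5 and 3 in PND8 Ki67-negative, 2 and 5 in PND8 Ki67-positive, 14 and 5 in the repopulating Ki67-negative and 8 and 3 in repopulating Ki67-positive libraries, which is 4.05 and 1.59 CPM in adult and 0.220 to 1.46 CPM elsewhere. Both adult libraries lay above all others, and adult replicate 1 lay above adult replicate 2. It fell by 2.79 (SE 0.76, adjusted p = 0.00791, edgeR) in PND8 Ki67-positive, by 2.69 (adjusted p = 0.00962, edgeR) in PND8 Ki67-negative and by 2.00 (SE 0.71, adjusted p = 0.0346, edgeR) in repopulating Ki67-positive cells. These 3 calls were lost without adult replicate 1, at -1.97, -1.86 and -1.17 (edgeR, adjusted p = 0.131, 0.153 and 0.358), and each also without 1 library of the other group. The third was also lost with DESeq2 (-2.04, adjusted p = 0.0953). In repopulating Ki67-negative cells the difference was -1.29 (adjusted p = 0.136, edgeR).

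Of the peptide editors, H2-DMa measured 106 and 109 CPM in adult, 58.2 and 71.3 in PND8 Ki67-negative, 60.6 and 60.0 in PND8 Ki67-positive, 184 and 225 in the repopulating Ki67-negative and 193 and 217 in repopulating Ki67-positive libraries. The 3 settings did not overlap: PND8 was lowest, adult intermediate and repopulation highest. H2-DMa fell by 0.83 (SE 0.12, adjusted p = 8.13e-05, edgeR) at PND8 and rose by 0.93 (SE 0.12, adjusted p = 2.57e-05, edgeR) in repopulation against adult, both in Ki67-positive cells. Against PND8 it was 1.76 higher in repopulating Ki67-positive cells on the log2 scale (SE 0.12, adjusted p = 1.5e-07, edgeR).

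H2-DMb1 measured 68.6 and 69.3 CPM in adult, 36.0 and 35.4 in PND8 Ki67-negative, 30.5 and 27.05 in PND8 Ki67-positive, 77.9 and 85.2 in the repopulating Ki67-negative and 66.9 and 76.0 in repopulating Ki67-positive libraries. PND8 was again lowest, and repopulating Ki67-positive libraries overlapped adult ones. It fell by 1.26 (SE 0.12, adjusted p = 1.29e-06, edgeR) in PND8 Ki67-positive cells against adult and was 1.31 higher (SE 0.12, adjusted p = 1.93e-06, edgeR) in repopulating than in PND8 Ki67-positive cells. In repopulation no difference from adult was called, at 0.05 and 0.24 (edgeR, adjusted p = 0.743 and 0.0973).

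None of the 3 class I genes was called lower in any comparison. H2-K1 measured 197 and 195 CPM in adult, 168 to 239 in the 4 PND8 libraries and 283 to 354 in the 4 repopulation libraries. H2-D1 measured 214 and 222 in adult, 232 to 295 at PND8 and 330.2 to 406 in repopulation. Repopulation libraries lay above all others for both genes, while adult H2-K1 lay within the PND8 range. In repopulating Ki67-positive cells H2-K1 rose by 0.70 (SE 0.15, adjusted p = 0.00216, edgeR) and H2-D1 by 0.76 (SE 0.13, adjusted p = 3.87e-04, edgeR) against adult, and the Ki67-negative differences were 0.70 and 0.75. Against PND8 Ki67-positive cells the rises were 0.61 (adjusted p = 0.00808, edgeR) and 0.47 (adjusted p = 0.0150, edgeR). Both were lost without PND8 Ki67-positive replicate 1 (edgeR, adjusted p = 0.121 and 0.193) or without repopulating Ki67-positive replicate 2 (edgeR, adjusted p = 0.0609 and 0.112). At PND8 neither gene was called against adult: H2-D1 stood at 0.29 (SE 0.13, adjusted p = 0.0776, edgeR) and H2-K1 at 0.09 in Ki67-positive cells. In the 10 libraries H2-K1 stood at 0.765 to 0.971 times H2-D1 in TPM.

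B2m, the light chain, had a narrow range, on 2303 to 3098 counts. The deposited counts take at most 3 tags per position, which can hold down a short abundant transcript such as B2m. The part of this cap in the narrow range and in the differences below was not tested. B2m measured 266 and 291 CPM in adult, 284 to 317 at PND8 and 311 to 392 in repopulation. Repopulation libraries lay above both adult ones and overlapped PND8. The rise against adult was 0.29 (SE 0.11, adjusted p = 0.0429, edgeR) in repopulating Ki67-positive and 0.33 (adjusted p = 0.0251, edgeR) in repopulating Ki67-negative cells. Leaving out either adult library, replicate 2 of the Ki67-negative group or either library of the Ki67-positive group lost the call (edgeR, adjusted p from 0.0581 to 0.297).

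**Figure D2:**
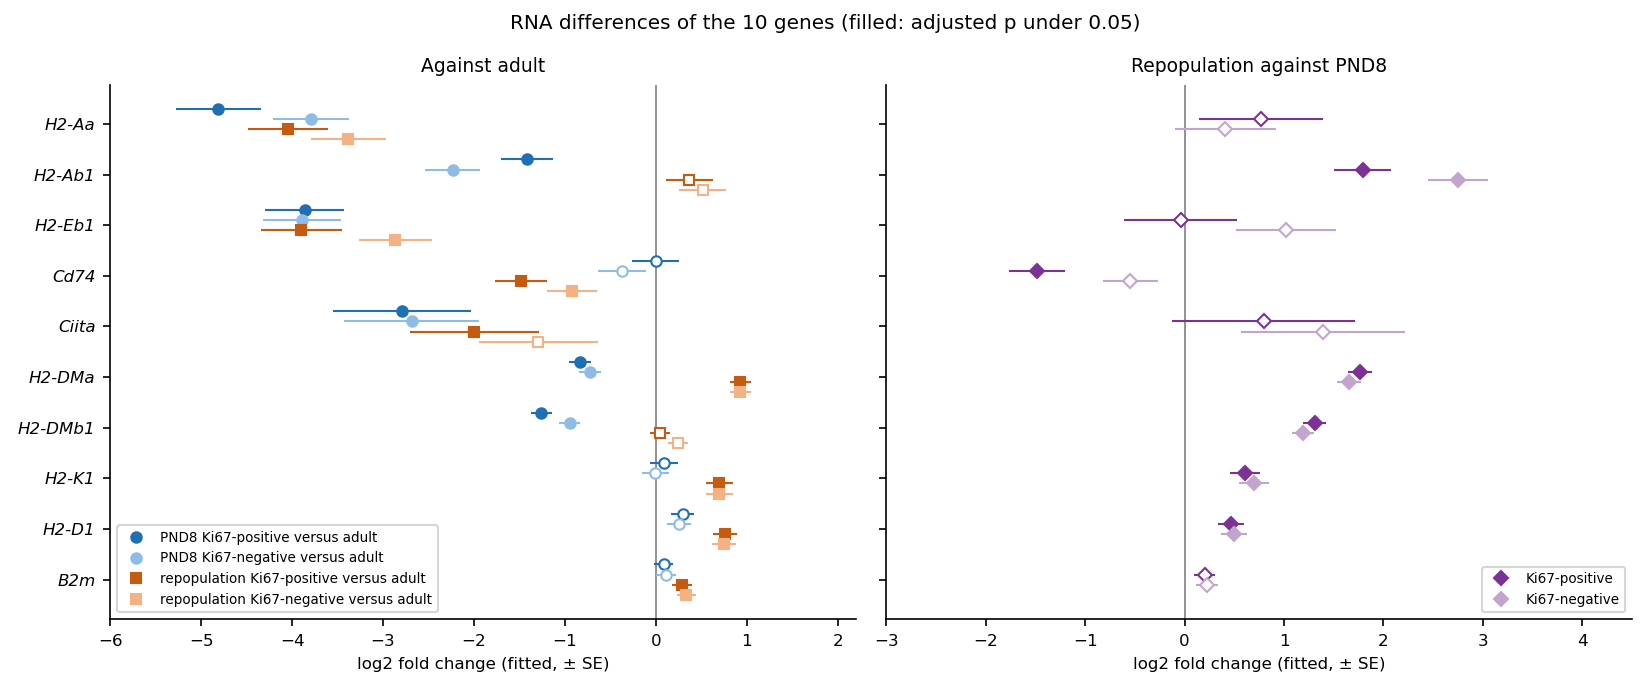
Fitted log2 fold changes with their SE for the 10 genes, against adult (left) and of repopulation against PND8 within the same Ki67 sort (right); filled symbols have an adjusted p under 0.05. PND8 points lie left of 0 for 3 class II chains, Ciita and H2-DM, and repopulation points split between H2-Aa, H2-Eb1, Cd74 and Ciita on the left and H2-DMa and class I on the right.

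Per length of transcript, the order of the genes also shifted. In adult the mean TPM was 492 ± 28.7 (SD, n = 2) for B2m, 190.4 ± 3.85 for H2-D1, 181 ± 2.08 for H2-K1, 96.4 ± 9.91 for Cd74, 95.8 ± 1.03 for H2-DMa and 81.4 ± 0.320 for H2-DMb1. H2-Aa followed at 34.5 ± 2.24, H2-Ab1 at 32.1 ± 7.23, H2-Eb1 at 21.7 ± 1.59 and Ciita at 0.775 ± 0.440. Neighbours whose 2 libraries overlapped were Cd74 with H2-DMa and H2-Aa with H2-Ab1. In repopulating Ki67-positive cells Cd74 (33.3 ± 7.61 TPM) stood below H2-DMb1 (79.9 ± 5.99 TPM) and overlapped H2-Ab1 (39.2 ± 8.36 TPM), while H2-Aa (1.98 ± 0.275 TPM) and H2-Eb1 (1.35 ± 0.516 TPM) stood far below. At PND8 Ki67-positive, Cd74 (97.5 ± 25.4 TPM) stood above H2-DMa (53.8 ± 0.605 TPM). For Cd74, Ciita and H2-DMa the TPM table names another transcript than the count table, so their TPM and CPM rest on different models. The TPM of the genes listed summed to 472498 to 486779 per library.

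Sorting by Ki67 within a setting called 0 of the 10 genes at PND8, where 5.90% of all genes were called (2.75% higher and 3.15% lower), and 0 of 10 in repopulation, where 2.74% were (1.87% higher and 0.867% lower). By an unadjusted p under 0.05, H2-Ab1 was higher and H2-DMb1 lower at PND8, and 0 genes moved in repopulation. DESeq2 called 0 in each. At PND8 H2-Ab1 stood at 0.81 (SE 0.33, adjusted p = 0.180, edgeR), with both Ki67-positive above both Ki67-negative libraries. In repopulation Cd74 stood at -0.57 (SE 0.29, adjusted p = 0.381, edgeR), with both Ki67-positive below both Ki67-negative libraries. The difference of the Ki67 effect between the settings was called for 0 of 10 genes and for 0 of 12230 tested by edgeR, with 613 genes at an unadjusted p under 0.05 and 3 called by DESeq2. Its fitted value was -0.93 (SE 0.39, adjusted p = 0.960, edgeR) for Cd74 and -0.96 (SE 0.42, adjusted p = 0.960, edgeR) for H2-Ab1, the only 2 of the 10 with an unadjusted p under 0.05. Same-numbered libraries of the 2 sorts share a header code, and with this code as a term 2 genes were called at PND8, Cd74 higher (0.41, adjusted p = 0.0120, edgeR) and H2-DMb1 lower (-0.31, adjusted p = 0.0453, edgeR). In repopulation Cd74 was then called lower (-0.57, adjusted p = 0.00561, edgeR), and the difference of the Ki67 effect reached -0.99 (adjusted p = 0.0138, edgeR).

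The column headers carry a code that may mark a batch, and libraries with the same code were compared. Between PND8 and repopulation, 1 pair per Ki67 sort shared a code, with no replicate. With 0.5 CPM added, the log2 ratio of repopulation to PND8 within a code was 2.07 and 2.30 for H2-Ab1 (Ki67-positive, then Ki67-negative), 1.68 and 1.36 for H2-DMa and 1.29 and 1.13 for H2-DMb1. It was -1.99 and -1.14 for Cd74, 0.32 and 0.35 for H2-K1, and 0.23 and 0.20 for H2-D1. These directions were those of the pooled values, and the ratios of H2-K1 and H2-D1 were smaller. H2-Aa in Ki67-negative cells (-0.47, pooled 0.41) and H2-Eb1 in Ki67-negative (-0.07, pooled 1.02) and Ki67-positive cells (0.57, pooled -0.04) ran against the pooled direction, on few counts and with no pooled call. The H2-D1 call between Ki67-positive groups was lost with the code as a term (0.20, adjusted p = 0.0685, edgeR). Adult libraries share a code with no other group and also lack the reporter, so code, genotype and group cannot be told apart there.

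The genes around presentation were counted from 5 lists. Of 14 class I partners, which cut, transport and load peptides or drive class I genes, 9 rose and 0 fell in repopulating Ki67-positive cells against adult (median log2 fold change 0.53, against -0.01 over all genes), where 23.9% of all genes were higher and 21.0% lower. In Ki67-negative cells 7 rose and 1, Tapbpl, fell, against 21.5% and 17.6%. In Ki67-positive cells 0 fell at an unadjusted p under 0.05 or by DESeq2 as well. At PND8, 2 rose and 3 fell in Ki67-positive cells (median 0.07), against 25.1% higher and 24.3% lower (49.5% in all) of all genes. Against PND8 Ki67-positive cells 11 of 14 rose and 0 fell in repopulation (median 0.50), where 16.7% of all genes were higher and 14.2% lower. There, 0 fell also at an unadjusted p under 0.05 and by DESeq2. Nlrc5, the class I co-activator, rose most: it measured 29.3 and 26.3 CPM in adult, 18.2 to 34.3 at PND8 and 138 to 190.3 in repopulation. Repopulation libraries lay far above both other settings, which overlapped. Its log2 fold change against adult was 2.35 (SE 0.20, adjusted p = 7.11e-07, edgeR) in Ki67-positive and 2.71 in Ki67-negative cells. Tap1, a subunit of the peptide transporter, rose by 1.28 and 1.26, and Psmb8, an immunoproteasome subunit, by 0.81 and 0.50. Tapbpl, an editor of class I peptides, fell by 0.73 at PND8 in Ki67-positive cells and was the largest fall there. Of the other class I and class I-like genes, 13 of the 20 listed passed the filter, and 10 rose and 0 fell in repopulation against adult in each sort (median 0.74 in Ki67-positive cells), against 23.9% and 21.5% higher of all genes, with 0 lower at an unadjusted p under 0.05 or by DESeq2. At PND8, 1 rose and 4 fell in Ki67-positive and 1 rose and 3 fell in Ki67-negative cells. The shares of all genes there were 25.1% higher and 24.3% lower, and 25.4% higher and 21.4% lower. In repopulation H2-Q9 rose most, by 1.97 in Ki67-positive cells, but its counts are nearly those of H2-Q7 in all libraries, and the 2 cannot be told apart. Its call was lost under several alternatives.

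Class II partners divided. Of 21 listed, 17 passed the filter. At PND8, 4 rose and 7 fell in Ki67-positive cells against adult (median -0.22), where 25.1% of all genes were higher and 24.3% lower. In repopulating Ki67-positive cells 4 rose and 1 fell (median 0.10), 5 of 17 called against 44.9% of all genes. H2-DMb2, the second H2-DM beta chain, measured 15.2 and 15.6 CPM in adult, 5.95 to 9.63 at PND8 and 32.7 to 42.6 in repopulation. The 3 settings did not overlap. It fell by 1.32 (adjusted p = 7.99e-05, edgeR) at PND8 and rose by 1.19 (adjusted p = 6.71e-05, edgeR) in repopulation, in Ki67-positive cells against adult. Its start lies 9962 bp from that of H2-DMb1 and the genes are alike in sequence, so reads may be split between them. H2-Ob, a chain of the H2-O inhibitor of H2-DM, fell by 1.33 at PND8 in Ki67-positive cells, the largest fall of the list. Ifi30, a thiol reductase that opens antigens, rose by 0.84 at PND8 and by 1.51 in repopulation. Ctss, the protease that trims Cd74, fell by 0.35 at PND8 and stood at 0.05 in repopulation (adjusted p = 0.736, edgeR). Rfx5, which binds the X box, fell by 0.45 at PND8 (adjusted p = 0.00548, edgeR) and stood at 0.26 in repopulation (adjusted p = 0.0734, edgeR). March1, a ligase that removes class II from the surface, fell by 1.00 and by 0.39.

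Interferon-gamma signalling and costimulation were read beside these. Of 9 interferon-gamma signalling genes that passed the filter, 0 rose and 6 fell in PND8 Ki67-positive cells against adult (median -0.28). Of all genes, 25.1% were higher and 24.3% lower there. The 0 was also 0 at an unadjusted p under 0.05 and by DESeq2. In repopulating Ki67-positive cells 2 rose and 2 fell (median -0.09), near the shares of all genes, 23.9% higher and 21.0% lower (44.9% in all). Irf1, a transcription factor induced by interferon, fell by 0.71 at PND8 and stood at 0.08 in repopulation (adjusted p = 0.677, edgeR). The receptor chain Ifngr1 fell by 0.42 and 0.44 in the 2 settings. Ifng itself had 1 count in 1 of 10 libraries and 0 in the others. Of 5 costimulation genes that passed, 4 fell in PND8 Ki67-positive cells (median -0.89) and 3 in Ki67-negative cells, against 24.3% and 21.4% lower of all genes, led by Cd274, the inhibitory ligand PD-L1 (-1.41, adjusted p = 7.22e-05, edgeR). In repopulating Ki67-positive cells Cd40 rose by 2.21 (SE 0.70, adjusted p = 0.0203, edgeR) on 20 and 19 counts against 7 and 2 in adult, and Cd80 and Cd86 fell by 0.50 and 0.20, with the Cd86 call lost with DESeq2 (adjusted p = 0.0712). In repopulating Ki67-negative cells 2 costimulation genes rose and 0 fell, also at an unadjusted p under 0.05 and by DESeq2. Of all genes, 21.5% were higher and 17.6% lower there. Without adult replicate 2 the Cd40 call was lost (1.62, adjusted p = 0.156, edgeR), as it was without either repopulating Ki67-positive library.

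Across the 10 libraries, Pearson's r of log2 CPM was 0.948 between H2-Aa and H2-Eb1, 0.959 between H2-K1 and H2-D1 and 0.915 between H2-DMa and H2-DMb1. Between H2-Aa and its partner H2-Ab1 it was 0.316, and between H2-Ab1 and H2-DMa 0.878. These values describe 10 libraries in 5 groups that share normalization, with no test. The genes most like the mean of the 3 class II chains and Cd74 were Clec5a (r = 0.969), Rarg (0.964), Sgsh (0.953), Kctd11 (0.949) and Trim5 (0.948). The genes in this mean differ in pattern, with r of -0.362 between H2-Ab1 and Cd74 and 0.327 between H2-Aa and Cd74. The genes most like the mean of H2-K1, H2-D1 and B2m were H2-L (0.984), Pcyox1l (0.982), Ssr4 (0.968), Glrx (0.968) and Rnaset2a (0.964). The start of the H2-L entry lies 29 bp from that of H2-D1, so its r may not be that of a separate gene.

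H3K27ac was read as regions that the authors called in each library separately, on 15233543 to 22888521 tags, with 32.6% to 69.66% of tags in 19572 to 30539 regions. A tag value is the authors' count per 10000000 tags, which describes a region within its own list and is not a measure of change between libraries. Within 1 kb of the start in both libraries, a region stood at 5 of the 10 genes in adult (40.9% of all genes), 4 in PND8 Ki67-negative (48.1%), 6 in PND8 Ki67-positive (49.3%), 5 in cuprizone Ki67-negative (43.8%), 6 in cuprizone Ki67-positive (45.9%) and 7 in the repopulating Ki67-positive group (47.2%). H2-DMb1, H2-K1, H2-D1 and B2m held one in 12 of 12 libraries, and H2-DMa in none. Within 10 kb the counts were 8 (47.8%), 8 (55.3%), 9 (56.6%), 7 (51.2%), 9 (52.9%) and 10 (54.5%), in the same order.

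The class I starts carried large regions in all groups. The region at B2m held 986 and 1046 tags in adult, 533 to 718 at PND8, 845 to 984 after cuprizone and 709 and 873 in repopulation. That at H2-D1 held 211 to 434 tags and that at H2-K1 164 to 454 tags over the 12 libraries. At H2-DMb1 the values were 47.2 and 95.7 in adult, 31.4 to 69.9 at PND8, 102 to 179 after cuprizone and 143 and 182.6 in repopulation. At H2-DMa, no region lay within 1 kb of the start of the count table's transcript. The start of the transcript in the TPM table lies upstream, 225 bp from the start of Brd2, and held 1232 to 2184 tags, which cannot be assigned to either gene.

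The class II starts differed more between lists. At Cd74 a wide region of 629 to 937 tags began at -80 to 435 bp from the start in 10 libraries. In both PND8 Ki67-negative libraries it began 1254 and 1307 bp downstream of the start, with 449 and 469 tags, and so fell outside the 1 kb window. At H2-Ab1 no region lay within 1 kb in adult, and the regions held 19.4 tags in 1 of 2 PND8 Ki67-negative, 19.1 and 64.3 in PND8 Ki67-positive, 82.3 in 1 of 2 cuprizone Ki67-negative, 45.3 and 143 in cuprizone Ki67-positive and 125 and 144 in repopulation libraries. In repopulation these regions reached from -379 to 2184 and from -156 to 1941 bp around the start. At H2-Aa, regions lay in both repopulation libraries (38.2 and 31.1 tags), in PND8 Ki67-positive replicate 2 (16.7) and in cuprizone Ki67-negative replicate 2 (46.4), and in no adult library. Among the cuprizone Ki67-negative libraries, replicate 2 held a region at both H2-Ab1 and H2-Aa, and replicate 1 at neither. Both cuprizone Ki67-positive libraries held one at H2-Ab1, and neither held one at H2-Aa. In replicate 2, 69.66% (Ki67-negative) and 65.3% (Ki67-positive) of tags lay in regions, against 56.3% and 51.9% in replicate 1. The part of these shares in the cuprizone counts was not tested. Among the 4 libraries with the header code of adult replicate 2, H2-Ab1 had no region within 1 kb in adult and PND8 Ki67-negative replicate 2, 64.3 tags in PND8 Ki67-positive replicate 2 and 125 in repopulating replicate 1.

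A further region lay between H2-Aa and H2-Eb1, upstream of both. In adult it spanned chr17:34296256-34297147 and chr17:34296250-34297006, with 52.9 and 24.8 tags, at -9324 to -8427 bp from the start of H2-Aa. A region overlapping this place stood in both PND8 Ki67-positive (19.1 and 31.4 tags), both repopulation (41.8 and 23.2) and replicate 2 of both cuprizone groups (87.3 and 86.0), and in neither PND8 Ki67-negative library. Adult libraries thus held this upstream region without one at either start, while H2-Aa and H2-Eb1 RNA were highest in adult. H2-Eb1 had a region within 1 kb in 1 of 12 libraries (16.1 tags). Ciita had one within 1 kb in 1 of 12 (20.2 tags), and another between -4778 and -3144 bp in both repopulation (29.3 and 27.9 tags), both cuprizone Ki67-positive (32.8 and 42.2) and 3 further libraries, but in neither adult library. RNA and H3K27ac came from different mice and ages, and no list pairs with an RNA library.

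**Figure D3:**
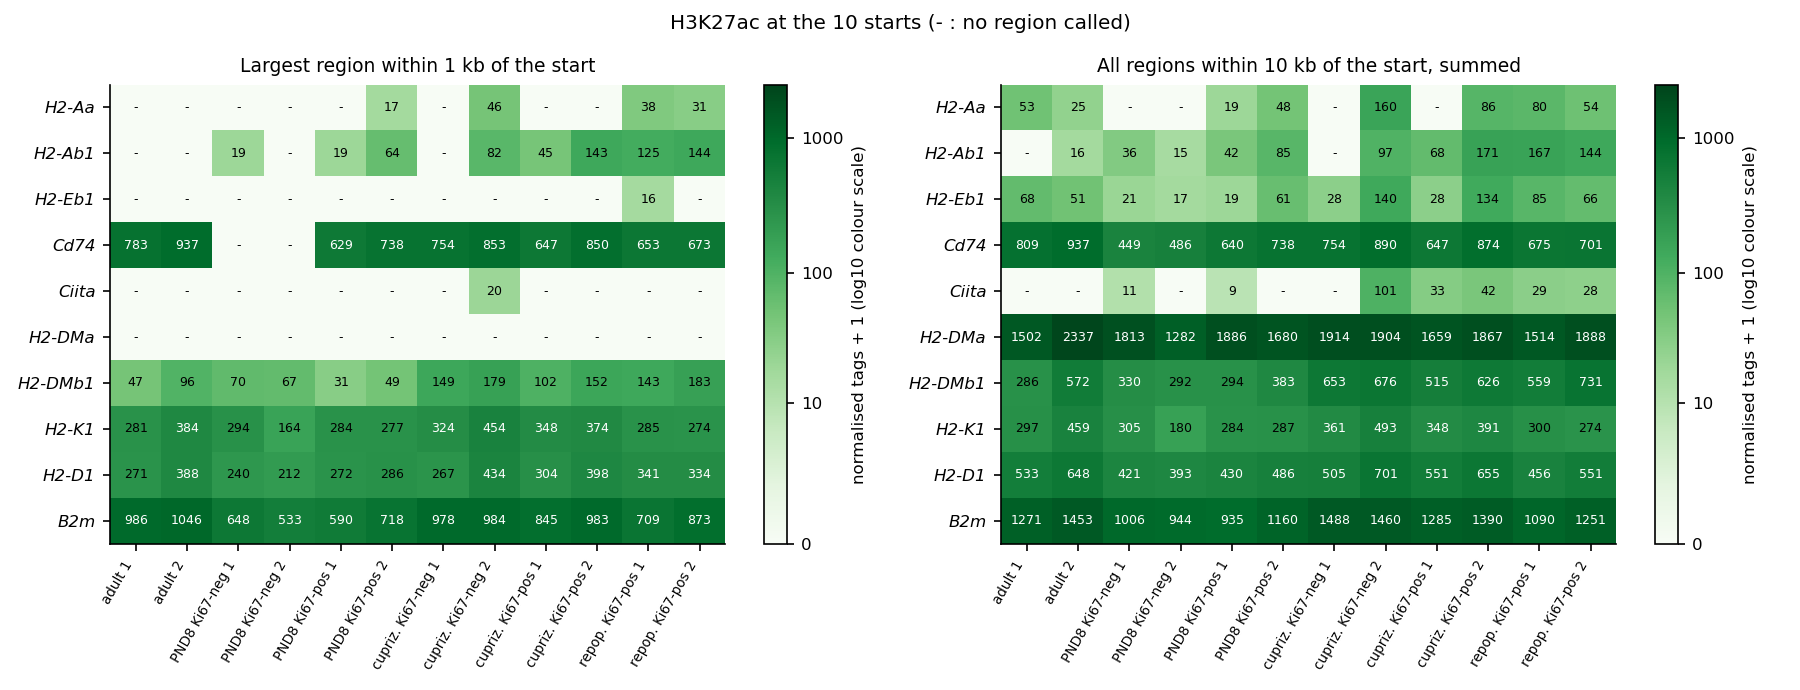
H3K27ac tags of the largest region within 1 kb of the start (left) and summed over all regions within 10 kb (right), as normalised by the authors, for 10 genes (rows) in 12 libraries (columns); colour is on a log10 scale and a dash marks no called region. H2-K1, H2-D1, B2m and H2-DMb1 carry values in all 12 columns, and H2-Ab1 carries its highest values in repopulation and cuprizone Ki67-positive replicate 2.

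**Figure D4:**
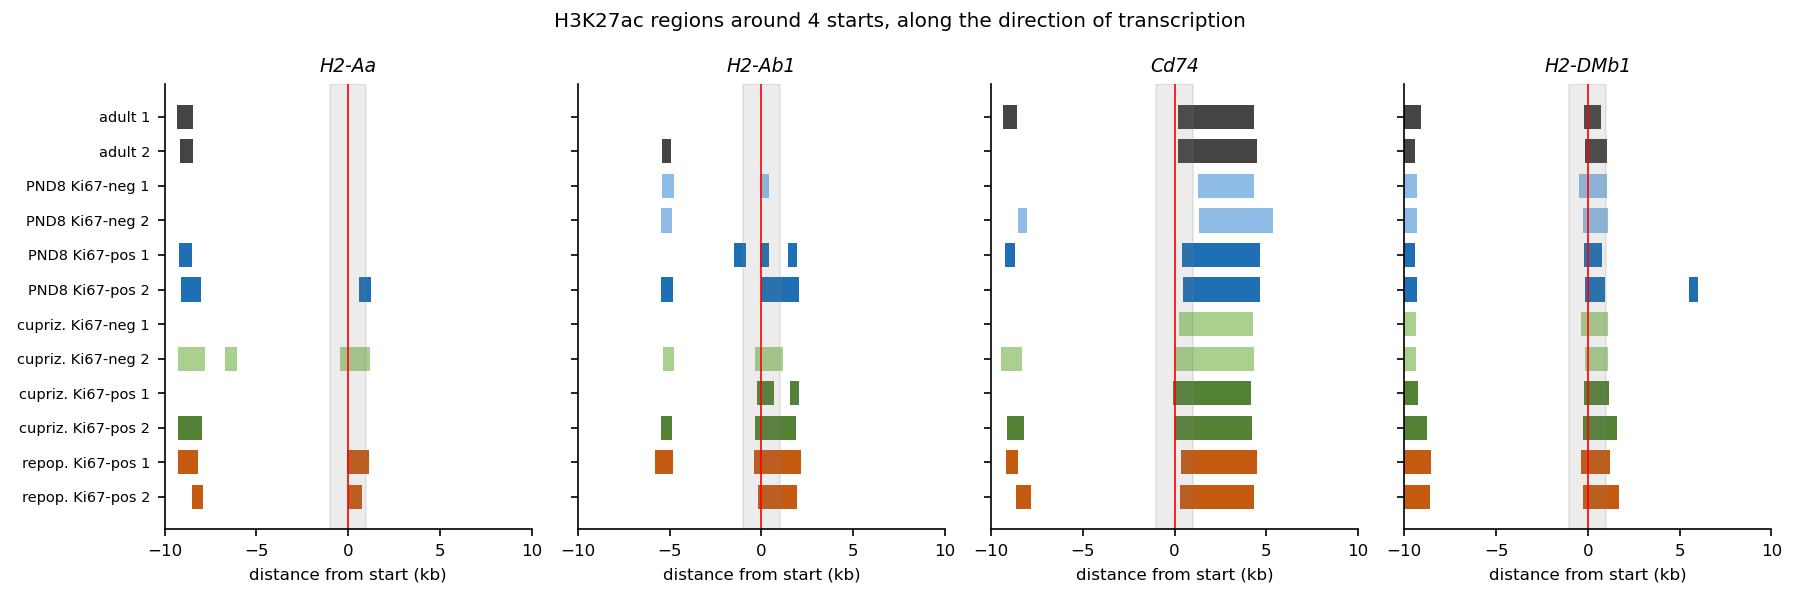
Extent of H3K27ac regions around the starts of H2-Aa, H2-Ab1, Cd74 and H2-DMb1 (x axis, distance from the start in kb along transcription; red line, start; grey band, 1 kb each side) in 12 libraries (rows). At H2-Aa the adult rows show the upstream region alone, and at Cd74 the PND8 Ki67-negative rows begin beyond the grey band.

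Other chromatin readouts were made in fewer groups, and all carry a wild-type genotype label. H3K4me3 came from untreated adults of 75 days, and Rpb2 from untreated adults of 60 and 65 days and PND8 Ki67-positive cells. ATAC-seq came from an untreated adult library of 80 days, untreated PND8 Ki67-positive cells and Ki67-positive cells of 75 days that had PLX5622 from 55 days of age for 17 days and recovered for 3. The titles of the last 2 name the Ki67rfp line, against their genotype label. H3K4me3, a mark of promoters, was present within 1 kb in both adult libraries at 5 of 10 genes, where 59.1% of all genes had it, and within 10 kb at 8 (65.0%). H2-Ab1 was among them, with 409 and 456 tags, although it had no H3K27ac region there in adult. H2-Aa, H2-Eb1, Cd74, Ciita and H2-DMa had none. Rpb2, a subunit of RNA polymerase II, stood at H2-K1, H2-D1 and B2m in both adult libraries (3 of 10, against 28.2% of all genes, and 4 of 10 within 10 kb, against 34.2%). In the 1 PND8 Ki67-positive library it stood at 6 of 10 (48.5%), with H2-Ab1, Cd74 and H2-DMb1 added, and at 9 of 10 within 10 kb (57.6%), but that list held 31602 peaks against 14550 and 10544 in adult. Open chromatin by ATAC-seq, with 1 library a group, was called within 1 kb at 10 of 10 genes in adult, PND8 Ki67-positive and repopulating Ki67-positive cells (56.1%, 58.5% and 60.9% of all genes, and 67.7%, 71.9% and 74.4% within 10 kb). The peak at H2-Aa held 85.4, 32.5 and 45.4 tags in that order, that at H2-Eb1 91.4, 48.8 and 66.4, and that at H2-Ab1 44.9, 38.0 and 46.6. The starts of H2-Aa, H2-Ab1, H2-Eb1, Ciita and H2-DMa were thus open in all 3 lists, while adult H3K27ac was called within 1 kb at none of them.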

How the data were processed

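RNA was measured in 10 libraries of 5 groups and chromatin in 20 libraries, grouped by the labels. Per the submitters' processing notes, STAR 2.7.0f, Bowtie2 2.3.4.1, HOMER 4.11 and DESeq2 were used, with mm10 or GRCm38. Per the labels' protocols, RNA libraries were polyA-selected and made with dUTP, and isolation was on ice in buffers holding butyrate and flavopiridol. The deposited counts were made by HOMER over exons of 1 transcript per gene with at most 3 tags per position, per the file headers, a cap that can hold down short abundant transcripts such as B2m. Per the file headers, HOMER also made the deposited TPM values. The deposited peak signal is a tag count per 10000000 tags, and the deposited score is HOMER's peak score, per the file headers. H3K27ac regions were stitched from windows of 500 bp at 4-fold over input and a false discovery rate of 0.001, per library, per the file headers. The PND8 Rpb2 list was called against an H3K27ac input, and ATAC headers name no build and were read as mm10.

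Counts were fitted with edgeR 4.0.16 in R 4.3.3 (TMM, filterByExpr by group with a minimum count of 10, quasi-likelihood, 1 term per group over 10 libraries), with Benjamini-Hochberg adjustment over 12230 genes in each of 8 comparisons and a threshold of 0.05. The fit was tested on simulated data. Alternatives were DESeq2 1.42.0, library sizes without TMM, no filter, limma 3.58.1 on log2 TPM with a pseudocount of 1 or 0.1, only the groups compared, a replicate block, the header code and each library left out. A region counted if it overlapped the start with 1 kb or 10 kb each side in both libraries. Start-site counts were repeated from the TPM table's transcripts, an alternative chosen after seeing the data. Motifs were searched in RefSeq promoters. Named genes were the 10 members, the largest rise and fall of each pathway list, Nlrc5, Tap1, Psmb8, Ctss, Rfx5, Irf1 and Ifngr1, and the 5 genes most alike. Members, lists and tests were chosen with earlier results of these data known. Itgax, Clec9a, Ccr2 and Cd79b were named after their values were seen. Some genes that this rule or the lists hold are not reported here by name. Proteins and a genome sequence were not used here, and 16 input samples were not analysed here as values of their own.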

Additional observations from a re-analysis of the deposited data

How the results depend on the processing

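Of 80 values (10 genes in 8 comparisons), 38 were called; 0 of these changed direction under any alternative, 29 were called under all of those run, 4 were lost under an alternative fit and 5 only when 1 library was left out, while 12 uncalled values were called under at least 1 alternative. Calls higher at PND8 Ki67-positive against adult went from 0 to 1 (H2-D1) without TMM, without the filter and with only the groups compared, and ranged from 0 to 1 leaving out 1 library; those at PND8 Ki67-negative went to 1 without the filter and ranged from 0 to 1. Between Ki67 sorts at PND8, calls higher went to 1 without the filter and with the header code and reached 2 without PND8 Ki67-negative replicate 2, and calls lower went to 1 with the header code. Cd74 became 1 call lower between sorts in repopulation, in repopulating against PND8 Ki67-negative cells and in the difference of the Ki67 effect without the filter and with the header code (the second also without PND8 Ki67-negative replicate 1). Calls higher in repopulating against PND8 Ki67-positive cells ranged from 3 to 5 leaving out 1 library.

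Same-numbered libraries of the 2 sorts of a setting share a header code. Differences in log2 CPM between replicate 1 and replicate 2 correlated between these sorts at 0.338 at PND8 and 0.263 in repopulation. Between other groups, whose same-numbered libraries share no code, these replicate differences correlated at -0.008 to 0.097. With a replicate block, 1 gene was called higher at PND8 against adult in each sort, and 1 lower between sorts in repopulation and in repopulating against PND8 Ki67-negative cells. The cause was not tested.

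Over all genes, leaving out TMM moved the split of higher and lower calls from 2040 and 1738 to 1730 and 2222 in repopulating against PND8 Ki67-positive cells and from 2203 and 2270 to 1829 and 3064 in the Ki67-negative ones, and DESeq2 moved that between repopulation sorts from 229 and 106 to 223 and 167. H3K27ac within 1 kb in cuprizone Ki67-negative cells went from 5 to 8 of 10 genes by 1 of 2 libraries or without replicate 1, and in repopulation from 7 to 4 among regions above the median score. Over the alternatives other than leaving out a library, the lowest 1 kb count was 3 in PND8 Ki67-negative cells and 4 in each other group. The main counts were 4 to 7, so their differences between groups depend on how a region is counted. With 2 libraries a group and Ciita, H2-Aa and H2-Eb1 at 2 to 31 counts outside adult, small differences in these genes were not detectable at this depth.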
